A study of Mus musculus with 24 samples.

Results

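Surface RNA of bone marrow monocytes was compared with surface RNA of hematopoietic stem and progenitor cells (HSPCs) from the same tissue. The comparison used 3 libraries of each cell type, 6 of the 15 surface libraries among the 24 samples of the series. Both groups were labelled wild type and came from C57BL/6 mice, with marrow flushed out of the femur and red blood cells lysed. No agent was given to either group, and the age and sex of the animals were not given in the sources used here. HSPCs were the cells left after a kit had depleted cells of the mature lineages, and monocytes were obtained with a monocyte isolation kit, so that neither preparation rested on sorting for 1 defining marker. Of the 102001 transcripts listed in both tables, 154 of the type rRNA and the 3 transcripts of Gm55936, Gm55094 and Gm55118 were left out, and the remaining 101844 were rescaled to a common total in each library, so that they are again TPM, transcript abundances corrected for length and scaled to the library. The 12992 transcripts above 10 rescaled TPM in at least 1 of the 6 libraries were tested. Protein-coding transcripts were also expressed as a share of the protein-coding TPM of their library, in ppm.

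The assay, AMOUR, keeps fixed cells intact on lectin beads, anneals a random primer that carries a T7 promoter to RNA exposed on the cell surface, and copies that RNA in place with T7 RNA polymerase. Monocytes are phagocytes that carry lysozyme, Fc receptors and the phagocyte oxidase and leave the marrow for blood and tissues. HSPCs are the dividing precursors of all blood lineages, with high ribosome production, the receptor Kit and transcription factors such as Gata2 and Myb. Among the short RNAs seen on the surface, spliceosomal snRNAs and most snoRNAs act in the nucleus, 7SL RNA is the scaffold of the signal recognition particle, 7SK RNA restrains transcription elongation, and Y and vault RNAs bind cytoplasmic ribonucleoproteins.

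The cell types differed first in how their libraries were filled. Transcripts of the type rRNA took 33.4 to 37.8% of the deposited TPM in monocytes and 7.71 to 12.6% in HSPCs, and the 3 dropped genes took 12.1 to 17.5% and 74.3 to 83.3%. The kept transcripts therefore held 48.7 to 50.1% of the TPM of a monocyte library and 9.00 to 13.1% of an HSPC library. Across the tested transcripts, Pearson's r of log2(TPM + 1) between replicates was 0.693 to 0.705 in monocytes and 0.927 to 0.937 in HSPCs. This is a description across transcripts that are not independent and of which most passed the filter through monocytes alone. After summing the coding transcripts of each tested gene, r on the coding share was 0.913 to 0.929 and 0.971 to 0.977. Read counts were not part of the tables, so depth is unknown. Per the study's methods the monocyte libraries ran on another sequencer with shorter reads, and their table lists 149488 transcripts against 102168 for HSPCs, so that platform, transcript set and cell type cannot be told apart. The spleen lymphocyte libraries cited below ran on the sequencer of the HSPCs, so their distance from monocytes carries the same limit of platform.

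With limma and Benjamini-Hochberg adjustment, 8539 of the 12992 transcripts (65.7%) were higher in monocytes and 617 (4.75%) were lower. Of these calls 93.3% were in the direction of monocytes, a split that became 83.0% with median-of-ratios size factors and 53.7% after quantile normalization. The median log2 fold change over all tested transcripts was 1.61, and it was 0.85 and 0.01 under those scalings and 2.97 on the deposited TPM. Only 3081 tested transcripts exceeded 10 TPM in both groups, whereas 9398 did so in monocytes alone and 513 in HSPCs alone, so most transcripts passed the filter through the group in which they were high. For protein-coding RNA the share of coding TPM removes the shift in coding content. On gene sums of that share, 3475 of 6907 genes (50.3%) were higher in monocytes and 1270 (18.4%) were lower, with a median log2 fold change of 0.44. On gene sums of rescaled TPM, non-coding transcripts included, 7837 of 9851 genes (79.6%) were higher and 513 (5.21%) lower, with a median of 1.47, so a gene can be lower as a share of coding TPM and higher on rescaled TPM. Of the 6907 genes of the coding share 2432 exceeded the minimum in both groups, 4372 in monocytes alone and 103 in HSPCs alone. Of the 2432 above it in both groups 772 (31.7%) were higher and 948 (39%) lower in monocytes, so that the majority of calls lay in the other direction among genes that 1 group alone did not bring in. The minimum of 10 TPM corresponded to 26.9 to 28.6 ppm of coding TPM in monocytes and to 66.9 to 78.8 ppm in HSPCs, so on this scale the minimum was higher for HSPCs. The labels do not say that replicates came from separate animals, so p-values measure the spread between these libraries only. In such bulk samples fewer cells of a type and less RNA per cell cannot be told apart.

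Monocyte genes were higher in the monocyte libraries and progenitor genes lower. Levels and fold changes of coding genes below are gene sums in ppm of coding TPM, with log2 fold changes on log2(ppm + 1). Lyz2, the lysozyme of myeloid cells on chromosome 10, stood at 11150, 9393 and 11050 ppm in monocytes and at 208, 434 and 359 ppm in HSPCs. By limma Lyz2 differed by 5.04 with an SE of 0.244 (Benjamini-Hochberg adjusted p = 1.95e-06), and the groups did not overlap. Chil3, a chitinase-like protein of alveolar and inflammatory phagocytes, stood at 4297, 3026 and 3632 ppm against 46.9, 168 and 80.5 ppm. Ly6c2, a surface antigen of the inflammatory monocyte, stood at 3533, 3689 and 3837 ppm against 660, 945 and 836 ppm. Monocyte libraries were thus all above HSPC libraries for these genes, although Ly6c2 was well above the minimum in HSPCs too. Fn1, which encodes fibronectin, differed by 6.04 on the log2 scale. The 32 listed monocyte identity genes were all tested, and 32 were higher and 0 lower, with a median log2 fold change of 4.12 beside 0.44 for all genes. Of these 32 genes 17 passed the minimum in monocytes alone, where the filter itself favours a higher level, and the 15 that passed it in both groups were higher, beside 31.7% of all such genes. Their summed share was 34973 ± 2337 ppm (SD, n = 3) in monocytes and 2916 ± 434 ppm in HSPCs.

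Of the 26 listed HSPC genes 13 were tested, of which 12 were lower in monocytes and 0 higher, with a median of -2.28. Of the 13 tested 5 passed the minimum in HSPCs alone, and the 7 that passed it in both groups were lower, beside 39% of all such genes. On rescaled TPM 10 of 15 tested were lower and 3 higher, beside 5.21% and 79.6% of all genes, with Runx1 among the higher (0.86). Kit, the stem cell factor receptor, stood at 15.8, 19.8 and 17.9 ppm in monocytes and at 266, 249 and 296 ppm in HSPCs. Kit differed by -3.85 with an SE of 0.124 (limma, adjusted p = 6.99e-07). Gata2, a transcription factor of early progenitors, stood at 13.95, 13.53 and 17.46 ppm against 238, 218 and 219 ppm, and Cd34, a sialomucin of progenitors, differed by -2.12. These 3 genes were chosen after their values were seen, so they do not test the labels. Kit and Gata2 lay below the minimum in monocytes on the coding share. Myb (-2.28) and Lmo2 (-1.45), transcriptional regulators of progenitors, Cdk6 (-2.10), a kinase of the G1 phase, and Runx1 (-0.57) were lower in monocytes, and these 4 have the highest mean rescaled TPM of the list over the 6 libraries. Adgrg1, an adhesion receptor, was the highest of the list in HSPCs, at 624, 511 and 613 ppm against 31.6, 17.1 and 37.8 ppm (-4.35). Flt3, a cytokine receptor of multipotent and lymphoid progenitors, gave no call at 0.07 (SE 0.267), was higher in monocytes on rescaled TPM (1.17) and was named after its value was seen. The other 13 listed genes did not enter the test on the coding share. Among them the stem cell markers Slamf1, Ly6a and Erg stood at 1.58 to 2.32, 1.05 to 1.795 and 2.18 to 3.37 rescaled TPM in HSPCs and at 3.06 to 5.13, 0.864 to 3.77 and 2.41 to 4.44 in monocytes, and Procr was listed at 0 in 2 of the 3 HSPC libraries and in the 3 monocyte libraries. These 4 stem cell markers thus lay below the minimum in both cell types and were not tested.

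**Figure D1:**
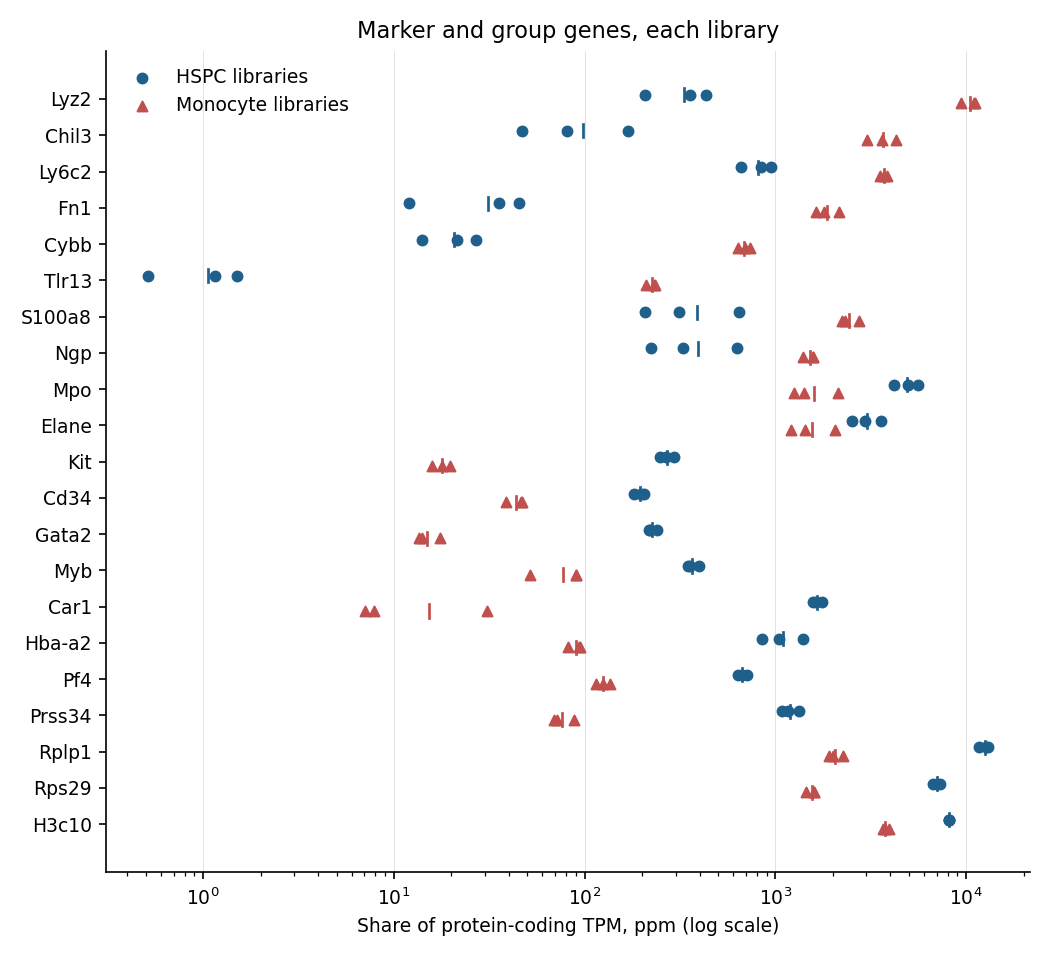
Share of protein-coding TPM in ppm (log scale) of 21 marker and group genes in each library, with monocytes as triangles, HSPCs as circles and the group mean as a vertical line. Lyz2, Chil3, Fn1, Cybb and Tlr13 lay higher in every monocyte library, Kit, Gata2, Car1 and Prss34 lay higher in every HSPC library, and HSPC replicate 2 held the highest S100a8 and Ngp of its group.

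Markers of other blood lineages also separated the groups. Neutrophil granule and alarmin genes were higher in monocytes for 16 of the 16 tested of 21 listed, with a median of 1.92, beside 50.3% of all genes. Of these 16 genes 8 passed the minimum in monocytes alone, and the 8 above it in both groups were higher, beside 31.7% of all such genes. S100a8, a partner in the calprotectin dimer, stood at 2238, 2756 and 2304 ppm against 206, 643 and 312 ppm, and its partner S100a9 differed by 2.99. The granule proteins Ngp (2.07) and Camp (1.49) differed less. The summed share of this list was 10340 to 11106 ppm in monocytes and 1314 to 3619 ppm in HSPCs, with HSPC replicate 2 the highest of its group. Its part in the difference in monocyte genes was not tested. Primary granule genes ran the other way for the abundant members on the coding share, but not on rescaled TPM. Mpo, the myeloperoxidase that marks granulocyte and monocyte progenitors, stood at 1253, 2128 and 1415 ppm in monocytes and 4198, 5610 and 4944 ppm in HSPCs, with no overlap and a difference of -1.65 (SE 0.198, limma, adjusted p = 1.68e-04). The serine proteases Elane (-0.97) and Prtn3 (-0.69) were also lower, but both lost their call after quantile normalization (-0.46 and -0.27). Srgn, the granule proteoglycan serglycin, gave no call (-0.13) and was called lower with size factors (-0.50). Of the 9 genes of this list, all above the minimum in both groups, 4 were lower, 1 was higher and 4 gave no call, near the 39% of all such genes that were lower, and 7 were lower with size factors. On rescaled TPM 7 of the 9 were higher and 0 lower, beside 79.6% and 5.21% of all genes, with Prtn3 at 0.59, Elane at 0.38 without a call and Mpo at -0.31 without a call and with overlap.

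Erythroid transcripts stood out in HSPCs, and megakaryocyte transcripts did so on the coding share. Erythroid genes were lower in monocytes for 14 of the 14 tested of 19 listed, with a median of -4.16 and a summed share of 404 to 624 ppm against 6619 to 7074 ppm. Of all genes 18.4% were lower. Of these 14 genes 7 passed the minimum in HSPCs alone, and the 7 above it in both groups were lower, beside 39% of all such genes. Car1, a carbonic anhydrase of erythroid precursors, stood at 7.02, 30.7 and 7.87 ppm in monocytes and at 1627, 1745 and 1565 ppm in HSPCs. The related Car2 differed by -5.17, the globin gene Hba-a2 by -3.57 and the peroxiredoxin Prdx2 by -1.80. Among megakaryocyte and platelet genes 10 of the 12 tested were lower and 1 was higher, beside 18.4% and 50.3% of all genes, while on rescaled TPM 3 were lower, 4 higher and 5 without a call, beside 5.21% and 79.6%. Pf4, a platelet chemokine, stood at 114, 136 and 125 ppm against 708, 665 and 637 ppm, and Tubb1, the tubulin of platelets, differed by -0.98. Thbs1, which encodes the matrix protein thrombospondin made by platelets and also by myeloid cells, was the 1 member that was higher (1.19). Ppbp was lower by a smaller step (-0.56), with overlap between the groups, and was called higher on rescaled TPM (0.78). Its lower call was lost with the replicate number as a block and, at -0.38 to -0.55, without monocyte replicate 2 or 3 or HSPC replicate 2 or 3.

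Prss34, a serine protease of basophils and mast cells, was abundant in HSPCs, at 1163, 1083 and 1334 ppm against 71.2, 68.9 and 88.2 ppm in monocytes, with no overlap (-3.96, SE 0.122, limma, adjusted p = 6.53e-07). The basophil protease Mcpt8 differed by -3.82 and histidine decarboxylase, Hdc, by -1.05, without a call and with overlap on rescaled TPM (-0.36). Ear2, a ribonuclease found in eosinophils and in some monocytes, was higher (5.60). Of the 6 tested genes of that list 3 passed the minimum in HSPCs alone, 2 in monocytes alone and 1 in both groups, so a count of their calls is not given. Lymphoid and stromal lists were sparse. No T cell gene and 1 of 19 B cell genes passed the filter on the coding share, and that B cell gene gave no call. The antibody genes are typed apart from coding genes, and on rescaled TPM Igkc stood at 48.2, 59.9 and 116 in monocytes and 419, 296 and 152 in HSPCs (-1.92), and the isoform Ighm-201 differed by -1.46, while the gene sum of Ighm gave no call and overlapped between the groups (-0.45). On the deposited TPM Igkc and Ighm-201 turned to the other direction without a call (0.22 and 0.66). The NK and T cell gene Nkg7 was lower (-1.52) but higher on rescaled TPM (0.54). Lower too were the collagen genes Col1a1 (-3.94) and Col1a2 (-3.51), whose HSPC libraries ranged from 72.0 to 243 ppm and from 33.9 to 110 ppm. Ccl5, a chemokine of NK and T cells, was higher (1.17). The platelet and endothelial adhesion gene Pecam1 was lower (-0.57) but higher on rescaled TPM (1.06). Macrophage genes divided, with the heme oxygenase gene Hmox1 (3.91) and the adhesion gene Vcam1 (1.33) higher and the iron exporter gene Slc40a1 lower (-2.90). Ccl5 and Vcam1 gave no call after quantile normalization (0.21 and 0.31).

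Genes of the phagocyte's armament were higher in monocytes. NADPH oxidase subunits were higher for 6 of the 6 listed, with a median of 2.19, beside 50.3% of all genes, and the 4 above the minimum in both groups were higher, beside 31.7% of all such genes. Cybb, the catalytic subunit of the phagocyte oxidase, stood at 736, 636 and 692 ppm against 13.96, 26.81 and 21.50 ppm (log2 fold change 5.03, SE 0.210, limma adjusted p = 1.16e-06). Its membrane partner Cyba differed by 2.13 and the GTPase Rac2 by 0.76. Lysosome and protease genes were higher for 21 of the 23 tested of 24, and 2 gave no call. Of the 23, 9 passed the minimum in monocytes alone, and of the 14 above it in both groups 12 were higher, beside 31.7% of all such genes. Psap, the precursor of the saposins that help to degrade sphingolipids, stood at 2893, 2713 and 2640 ppm against 480, 460 and 538 ppm, and the protease inhibitor Cst3 (1.59), the membrane proteins Laptm5 (1.53) and Lamp1 (1.69) followed. In the list of Fc receptors, integrins and complement 8 of the 12 tested of 13 passed the minimum in monocytes alone. The 4 above it in both groups were higher, beside 31.7% of all such genes. The signalling adaptors Tyrobp (2.12) and Fcer1g (2.91), the complement component C3 (4.30) and the integrin chain Itgb2 (2.63) were higher, and these 4 have the highest mean rescaled TPM of the list.

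Tlr13, Tlr2, Clec7a and Sting1, which sense microbial nucleic acid and cell wall, were higher in monocytes. Tlr13, an endosomal receptor for bacterial ribosomal RNA, stood at 232, 235 and 210 ppm in monocytes and at 0.516, 1.51 and 1.15 ppm in HSPCs. The lipopeptide receptor Tlr2 differed by 3.90, the glucan receptor Clec7a by 4.12 and the adaptor Sting1, at 13.6 to 54.5 ppm in HSPCs, by 2.20. Of the 22 listed pattern recognition genes 17 were tested, and these 17 passed the minimum in monocytes alone, so that the filter selected them for a high level there and a count of their calls is not given. Interferon-stimulated genes were higher for 24 of the 27 tested of 36 and lower for 1, beside 50.3% and 18.4% of all genes, with a median of 2.34, but 19 of the 27 passed the minimum in monocytes alone, and of the 8 above it in both groups 6 were higher and 1 lower, beside 31.7% and 39% of all such genes. Ifitm3, which restricts viral entry, stood at 1546, 1755 and 1864 ppm against 191, 233 and 249 ppm, Ifi27l2a differed by 4.67 and Ly6e by 0.94. Ifitm2 was higher by 0.35, gave no call after quantile normalization (0.14) and turned to -0.02 with size factors. The 1 lower member was Ifitm1, a relative of Ifitm3, at -2.80, named after its value was seen. Of the 8 MHC class II genes 4 were tested, 3 of them above the minimum in monocytes alone, namely the invariant chain gene Cd74 (2.07), H2-Aa (2.54), H2-DMa (1.03) and H2-DMb1 (2.31).

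Most tested genes of the chemokine, cytoskeleton and immediate early lists were higher in monocytes. Of the 10 tested chemokine and receptor genes 8 were higher and 1 lower, beside 50.3% and 18.4% of all genes. Of the 10, 5 passed the minimum in monocytes alone. Of the 5 above it in both groups 3 were higher and 1 lower, beside 31.7% and 39% of all such genes. On rescaled TPM 11 of the 12 tested were higher and 0 lower, beside 79.6% and 5.21% of all genes. Ccl2, a monocyte attractant chosen after its value was seen, stood at 174.5, 208.5 and 248.5 ppm in monocytes and was listed at 2.23, 0 and 0 ppm in HSPCs. Cxcr4, which retains cells in the marrow, differed by 1.89, Ccl3 by 1.55 and Csf2ra, a chain of the receptor for granulocyte-macrophage colony-stimulating factor, by 2.89. Ifngr1, a chain of the interferon gamma receptor, gave no call (0.13) but was higher on rescaled TPM (1.92), and Ccl4, named after its value was seen, was the 1 lower member (-0.90), with no call on rescaled TPM (0.43). Actin cytoskeleton genes were higher for 16 of the 17 listed, with a median of 1.60, beside 50.3% of all genes. Actb stood at 9070, 8802 and 9064 ppm against 4748, 5701 and 5169 ppm, and the actin-sequestering thymosins Tmsb4x (1.74) and Tmsb10 (2.32) moved further, beside Actg1 (0.93). Immediate early genes are transcribed within minutes of a stimulus. They were higher for 10 of the 14 listed and lower for 1, beside 50.3% and 18.4% of all genes. On rescaled TPM 14 were higher and 0 lower, beside 79.6% and 5.21%. Fos stood at 3599, 3057 and 3235 ppm against 635, 710 and 632 ppm, and the phosphatase gene Dusp1 (2.56), the mRNA decay factor Zfp36 (1.93) and Junb (1.12) were higher too.

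**Figure D2:**
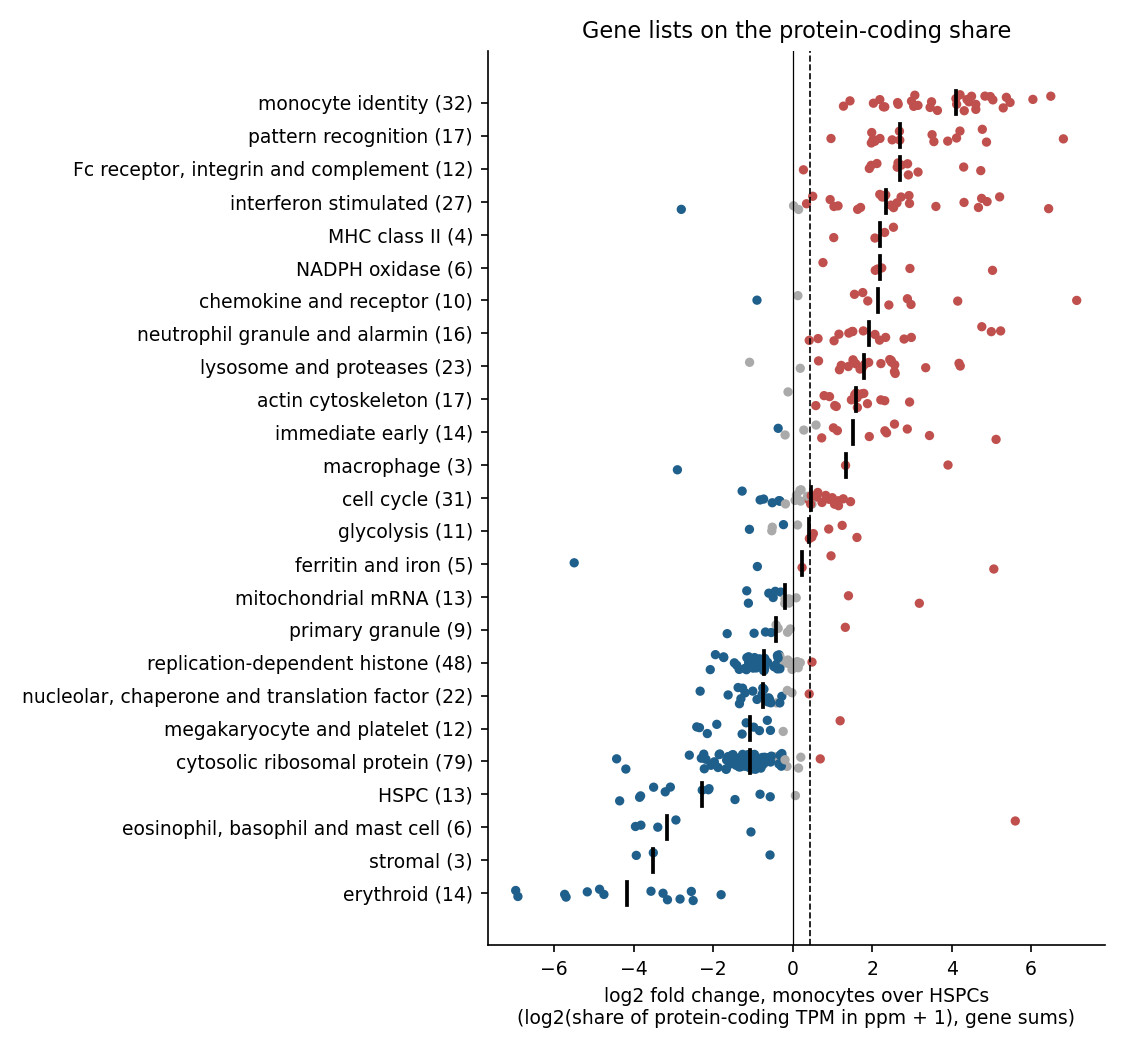
Log2 fold change of each tested gene, monocytes over HSPCs, on log2(ppm of protein-coding TPM + 1), by gene list with the number tested in brackets. Red and blue points were called higher and lower by limma, grey points gave no call, black bars are list medians and the dashed line is the median of all genes, 0.44. Medians run from 4.12 for monocyte identity to -4.16 for erythroid genes, with cell cycle and glycolysis genes near the dashed line.

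Genes of ribosomes and translation were lower in monocytes as a share of coding TPM, but not on rescaled TPM. Cytosolic ribosomal protein genes were lower for 73 of the 79 listed and higher for 1, with a median of -1.08 beside 0.44 for all genes. The 79 were above the minimum in both groups, where 39% of all genes were lower and 31.7% higher. On rescaled TPM 10 were lower and 37 higher, beside 5.21% and 79.6% of all genes, with a median of 0.27 beside 1.47. Rplp1, an acidic stalk protein of the large subunit, stood at 1909, 2267 and 2003 ppm in monocytes and at 12780, 11690 and 12980 ppm in HSPCs (-2.60 with an SE of 0.0914, limma, adjusted p = 7.89e-07). The small-subunit protein genes Rps29 (-2.18) and Rps27 (-1.08) were lower as well. Rplp1 (-1.25) and Rps29 (-0.83) were lower on rescaled TPM too, and Rps27 gave no call there (0.26). Together the 79 genes made up 69925 to 76646 ppm of coding TPM in monocytes and 167790 to 170990 ppm in HSPCs, and 28711 to 29768 against 23645 to 26895 in rescaled TPM. The count of lower genes was 76 with size factors and 65 after quantile normalization. Nucleolar, chaperone and translation factor genes were lower for 18 of the 22 listed and higher for 1, beside the same 39% and 31.7%, and on rescaled TPM lower for 3 and higher for 13, beside 5.21% and 79.6%. Elongation factor Eef2 differed by -1.004, Eef1a1 by -0.90, the chaperone gene Hspa8 by -0.63 and Tpt1 by -0.58, with Eef1a1 and Tpt1 without a call after quantile normalization (-0.11 and -0.16). On rescaled TPM these 4 were called higher, Eef2 at 0.32, Eef1a1 at 0.45, Hspa8 at 0.91 and Tpt1 at 1.59.

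Replication-dependent histone genes, whose mRNAs lack a poly(A) tail, were lower for 36 of the 48 tested and higher for 1, with a median of -0.71, and for 28 and 7 after quantile normalization. The 48 were above the minimum in both groups, where 39% of all genes were lower and 31.7% higher. On rescaled TPM 3 were lower and 34 higher, beside 5.21% and 79.6% of all genes, with a median of 0.63. H3c10 stood at 3751, 3925 and 3650 ppm against 8161, 8111 and 8150 ppm (-1.11). H2bc15 (-0.38), H4c6 (-0.72) and H2ac18 (-0.73) were lower by smaller steps, and these 3 turned to the other direction after quantile normalization (0.39, 0.15 and 0.14), H2bc15 with a call. On rescaled TPM H2bc15 (0.96), H4c6 (0.63) and H2ac18 (0.62) were called higher and H3c10 gave no call (0.24). The near-identical histone copies share reads, so the split between copies is uncertain. Cell cycle genes divided on the coding share. Of the 31 listed 16 were higher, 7 lower and 8 gave no call, beside 50.3% and 18.4% of all genes, with a median of 0.45 beside 0.44. Of the 24 above the minimum in both groups 11 were higher and 7 lower, beside 31.7% and 39% of all such genes. On rescaled TPM 31 were higher and 0 lower, beside 79.6% and 5.21%, with a median of 1.60 beside 1.47 for all genes. Mki67, a marker of dividing cells, stood at 407, 405 and 421 ppm in monocytes and at 218, 208 and 190 ppm in HSPCs, and Top2a differed by 0.47, a call that was lost with size factors (0.10) and after quantile normalization (0.18). Stmn1, which destabilises microtubules, gave no call (0.06). Glycolysis genes were higher for 6 of the 11 listed and lower for 2, near the 50.3% and 18.4% of all genes, and higher for 11 on rescaled TPM, beside 79.6%. Gapdh gave no call (0.12). Gapdh turned lower with size factors (-0.25) and higher after quantile normalization (0.57), both with a call. Eno1 was higher (0.42) and Gpi1 lower (-0.23), though higher on rescaled TPM (1.33), and both lost their call under several settings. Aldoa was higher (0.48) and lost its call with size factors (0.11).

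The genes of the ferritin chains differed from each other. Fth1, the ferroxidase heavy chain of ferritin, stood at 1030, 1071 and 1071 ppm in monocytes and at 1983, 1921 and 1972 ppm in HSPCs (-0.89), but was called higher on rescaled TPM (0.58). Ftl1, the light chain, stood at 3144, 2701 and 2681 ppm against 2417, 2373 and 2431 ppm (0.24), a difference that turned to -0.14 with size factors and lost its call with the replicate block and, at 0.16 to 0.24, without monocyte replicate 1 or any 1 HSPC library. Slc11a1, the metal transporter of phagosomes, differed by 5.06, and Tfr2, an erythroid and hepatic transferrin receptor, by -5.50. Mitochondrial mRNAs took 19646 to 21600 ppm in monocytes and 23270 to 29989 ppm in HSPCs. Of the 13 genes, all above the minimum in both groups, 6 were lower and 2 higher, beside 39% and 31.7% of all such genes, which became 11 and 2 with size factors and 3 and 4 after quantile normalization. On rescaled TPM 11 were higher and 0 lower, beside 79.6% and 5.21% of all genes, with a median of 1.14 beside 1.47 for all genes. The cytochrome oxidase subunit mt-Co2 differed by -1.11 and mt-Co1 by -0.60, and mt-Co1 turned to 0.18 without a call after quantile normalization. The 2 subunit genes mt-Co3 (-0.30) and mt-Atp8 (0.09, no call) changed sign with the scaling, mt-Co3 to 0.44 after quantile normalization and mt-Atp8 to -0.28 with size factors. The call on mt-Co3 was lost, at -0.20 to -0.32, without monocyte replicate 1 or 2 or HSPC replicate 1 or 3. On rescaled TPM mt-Co1 (0.75), mt-Co3 (1.05) and mt-Atp8 (1.43) were called higher and mt-Co2 gave no call (0.23). The widest gap among these 13 was in mt-Nd6, the only mRNA annotated on the minus strand of the mitochondrial genome, at 680, 625 and 747 ppm against 98.9, 50.9 and 80.5 ppm (3.19, named after its value was seen). On rescaled TPM the 8 tRNAs of that strand did not move as one, with 4 higher and 1 lower, beside 7 higher and 2 lower of the 14 tRNAs of the plus strand.

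Calls on single isoforms did not always follow the gene. On the coding share 3605 of 8622 coding transcripts (41.8%) were higher in monocytes and 1066 (12.4%) lower, and 41.7% and 12.3% were called without overlap between the groups. Of the calls 77.2% were in the direction of monocytes, 59.7% with size factors and 51.8% after quantile normalization. Among the 8 coding transcripts with the largest change in each direction, the gene sum was called in the same direction for 13 of 16. Gapdh-202 stood at 854, 868 and 900 ppm of coding TPM in monocytes and was listed at 0, 7.53 and 0 ppm in HSPCs, whereas the sum over the 12 Gapdh transcripts was 1576 to 1721 ppm and 1440 to 1571 ppm. Oaz1-207 was higher in monocytes while the gene sum of Oaz1, an antizyme that limits polyamines, was lower (-0.77), though higher on rescaled TPM (0.57). Gnb2-215 was listed at 0 in the 3 monocyte libraries and at 144 to 244 ppm in HSPCs, and the gene sum of Gnb2, a G protein subunit, was higher in monocytes (0.31). Other isoforms moved with their gene. Dusp1-206, Tyrobp-201, Fn1-217, Csf2ra-201, Ms4a4a-201 and Arpc5-202 were higher together with their gene sums. Rps14-205, Car1-203, Pabpc1-208, Pf4-203, Gpi1-205, Mt2-201 and Adgrg1-202 were lower together with theirs. Mt2-201, of a metallothionein that binds zinc, stood at 303, 269 and 312 ppm in HSPCs and was listed at 0, 8.55 and 0 ppm in monocytes. Of the 1737 genes with at least 2 tested coding transcripts, 101 (5.81%) had transcripts called in both directions. Kallisto divides reads between isoforms by likelihood, so the level of 1 isoform is less certain than its gene sum.

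Pseudogene copies showed the same limit. Of the 210 tested pseudogene transcripts 108 copied a coding transcript at 95% identity or more over at least 80% of their length, 40 of them from ribosomal protein genes. Of the 108 copies 45 were higher and 10 lower, beside 65.7% and 4.75% of all transcripts. Gm14303-201, identical over its 171 bases to Rps29-201, stood at 397, 390 and 335 rescaled TPM in monocytes and was listed at 3.57e-08, 0 and 0 in HSPCs, while Rps29-201 stood at 564, 508 and 595 against 851, 1038 and 1092. Gm7536-201, identical to Rpl27a-203 over 444 bases, was higher (2.34), whereas its parent transcript gave no call (-0.16). With the copies added to their parent genes, 71 of the 79 ribosomal protein genes were called lower and 2 higher. Tpt1 moved from -0.58 to 0.00 and Hmgb2, a chromatin protein of dividing cells, from -0.32 to 0.62, an alternative chosen after seeing the data. The call on Hmgb2 itself was lost with the replicate block and, at -0.24 to -0.30, without monocyte replicate 1 or 3 or HSPC replicate 1.

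The shares of RNA types on the surface did not overlap between the groups for 14 of 16 types. With 3 libraries against 3 the smallest p of an exact permutation test is 0.10, which became 0.114 after Benjamini-Hochberg adjustment over the 16 types, so no type could pass 0.05. Protein-coding transcripts made up 35.6, 34.9 and 37.1% of the rescaled TPM in monocytes and 12.68, 14.70 and 14.96% in HSPCs. The snRNAs made up 13.01, 13.75 and 11.29% against 29.26, 28.57 and 25.53%. Transcripts of the type miRNA made up 7.51, 7.72 and 8.07% against 23.5, 21.8 and 23.5%. Monocyte surface RNA was thus richer in mRNA and poorer in short nuclear RNA as these shares measure it, but the order of several types rested on what is counted. Taking the deposited TPM with rRNA and the 3 dropped genes as the whole, snRNA (1.05), misc_RNA (1.36), snoRNA (1.91), ribozyme (1.23) and scaRNA (1.91) had log2 ratios in favour of monocytes. Mitochondrial tRNAs made up 13.2 ± 0.477% in monocytes and 9.26 ± 0.326% in HSPCs (SD, n = 3), and processed pseudogenes 2.82 ± 0.315% and 0.208 ± 0.0353%. Of the pseudogene share, 1.79 to 2.38 percentage points in monocytes were the pair Gm12895 and Gm12896.

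**Figure D3:**
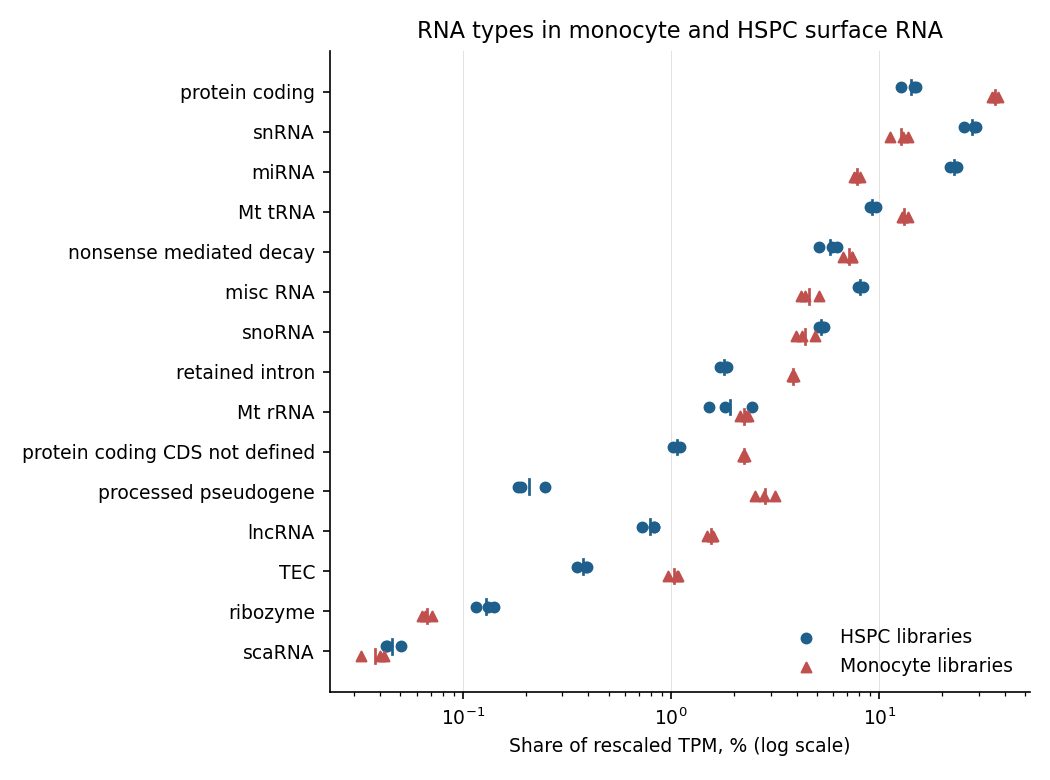
Share of rescaled TPM (percent, log scale) of 15 RNA types in each library, with monocytes as triangles, HSPCs as circles and group means as vertical lines. Protein-coding, retained intron and processed pseudogene transcripts lay higher in monocytes and snRNA, miRNA, misc_RNA and ribozyme transcripts lower, with snRNA, misc_RNA, ribozyme, snoRNA and scaRNA turning to the other direction on the deposited TPM.

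The miRNA share of HSPCs was mostly 1 entry. Mir6236-201 stood at 17005, 18817 and 16965 rescaled TPM in monocytes and at 206020, 195180 and 208330 in HSPCs. That is 1.70 to 1.88% and 19.5 to 20.8% of the rescaled TPM, which leaves out rRNA and the 3 dropped genes. The groups did not overlap (-3.53, SE 0.171, limma, adjusted p = 2.12e-05). The other miRNA entries together made up 5.81 to 6.38% in monocytes and 2.25 to 2.90% in HSPCs, and without Mir6236 the log2 ratio of the type turned from -1.56 to 0.92. Of the 444 tested miRNA entries 59 were higher and 53 lower, beside 65.7% and 4.75% of all transcripts. Gm55276-201, also typed miRNA, stood at 1564, 1932 and 4098 against 14696, 9320 and 12968 (-2.39), without a call on the deposited TPM (-0.22). In this assay an entry of the type miRNA is the hairpin gene, and its reads do not show a mature miRNA. Mir142 is a hematopoietic miRNA that lies in an intron of Mir142hg on the same strand, at chr11:87756864-87756927 (GRCm38). Mir142-201 was listed at 0, 87.6 and 0 rescaled TPM in monocytes and stood at 700, 591 and 558 in HSPCs, with no overlap (limma adjusted p = 0.0102), whereas the host transcript Mir142hg-202 stood at 24.2, 21.9 and 13.6 against 15.51, 18.83 and 17.98 and gave no call (0.15). The host was lower by -0.76 with size factors and by -1.40 after quantile normalization, both with a call. In the spleen lymphocyte libraries, which shared the sequencer of the HSPCs, Mir142-201 lay between 554 and 2594 rescaled TPM. Mir19b-1-201, a member of the growth-promoting Mir17hg cluster chosen after its value was seen, was listed at 0 in monocytes and at 18.7, 24.4 and 25.6 in HSPCs. The mature sequences of Mir142, Mir6236 and Mir19b-1 are shown to identify the hairpins described here, with the seed (bases 2 to 8) in capitals, from RefSeq on GRCm38.p6. The seeds of the 5 sequences all differ.
mmu-miR-142a-5p: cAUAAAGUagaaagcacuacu
mmu-miR-142a-3p: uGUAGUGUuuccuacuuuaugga
mmu-miR-6236: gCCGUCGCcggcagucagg
mmu-miR-19b-1-5p: aGUUUUGCagguuugcauccagc
mmu-miR-19b-3p: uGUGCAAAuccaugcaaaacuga

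Spliceosomal snRNA entries were called in both directions, and U12 was among the lower ones. Of the 301 tested snRNA transcripts 88 were higher and 87 lower, against 65.7% and 4.75% of all transcripts, and many are copies that share reads. Rnu12 is the U12 snRNA, which pairs with the branch site of minor introns, at chr15:83149644-83149794 on the plus strand. Rnu12-201, chosen after its value was seen, stood at 989, 1063 and 959 rescaled TPM in monocytes and at 7494, 8181 and 7140 in HSPCs, with no overlap (log2 fold change -2.92, SE 0.107, limma adjusted p = 1.33e-05). In spleen lymphocytes it lay between 2901 and 9409.7. Relative to the median of all transcripts under each of 5 scalings it was lower by 2.71 to 4.73 on the log2 scale. The sequence is from the GENCODE M21 transcript, with the 7 bases of U12 known to pair with the branch site in capitals.
Rnu12-201: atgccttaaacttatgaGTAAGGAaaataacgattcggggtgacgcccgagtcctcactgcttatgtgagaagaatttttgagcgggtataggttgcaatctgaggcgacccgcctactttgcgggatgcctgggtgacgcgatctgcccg

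U11, which recognises the 5′ splice site of minor introns, lay opposite an RNA that moved the other way. Rnu11-201 stood at 2741, 3419 and 3168 rescaled TPM in monocytes and at 7271, 5255 and 4977 in HSPCs, and was lower (-0.89), but lost its call after quantile normalization (-0.54) and turned to 1.27 on the deposited TPM. Gm28872-201, a long non-coding RNA at chr4:132270056-132270213 on the plus strand, contains the full reverse complement of the 134 bases of Rnu11 and stood at 470, 538 and 441 in monocytes but was listed at 0 in the 3 HSPC libraries. The pair is printed because over the 134 shared bases only the strand of a read tells the 2 RNAs apart, and how strand was handled is not stated for either table. Capitals mark the 134 shared bases in Gm28872-201.
Rnu11-201: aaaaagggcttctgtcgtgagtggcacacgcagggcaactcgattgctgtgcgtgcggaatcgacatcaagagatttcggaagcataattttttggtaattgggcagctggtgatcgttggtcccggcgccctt
Gm28872-201: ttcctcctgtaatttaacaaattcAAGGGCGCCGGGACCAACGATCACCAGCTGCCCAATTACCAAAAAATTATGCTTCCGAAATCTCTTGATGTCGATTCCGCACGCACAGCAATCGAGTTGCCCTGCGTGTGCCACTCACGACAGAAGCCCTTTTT

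A second antisense entry was also near 0 in HSPCs. Gm47428-201, at chr13:74404183-74406737 on the minus strand, which matches the reverse complement of Ftl1-201 over 345 bases at 99.4% identity, stood at 196, 183 and 236 rescaled TPM in monocytes and was listed at 0, 0.286 and 0 in HSPCs, although Ftl1-201 itself was present in both groups. Of the 53 tested lncRNA transcripts that M21 types antisense 36 were higher in monocytes and 2 lower, beside 65 and 3 of 89 lincRNA transcripts and 65.7% and 4.75% of all transcripts. Medians were 2.73 and 2.10.

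Several RNAs of cytoplasmic, nuclear and nucleolar particles were lower in monocytes on rescaled TPM. Rn7s1-201 and Rn7s2-201, the identical 7SL genes, stood at 9725, 9440 and 12092 rescaled TPM each in monocytes and at 24833, 26704 and 26758 in HSPCs (-1.33). Rn7sk-201, the 7SK RNA, stood at 9077, 8668 and 9276 against 19364, 17136 and 19940 (-1.06), without a call after quantile normalization. Both turned to the other direction on the deposited TPM (0.83 and 1.11) and both lay below the median transcript under every scaling run, by at least 1.00 and 0.59. Rmrp-202, the RNA of the mitochondrial and nucleolar RNase MRP that trims ribosomal RNA precursors, stood at 307, 330 and 308 against 3267, 2401 and 2896 (-3.17 with an SE of 0.134, limma, adjusted p = 1.64e-05). Rpph1-201, the RNA of RNase P, differed by -0.97 and turned to 1.19 on the deposited TPM. Snord13-201, which guides acetylation of 18S ribosomal RNA, stood at 1513, 1341 and 1875 against 5529, 6790 and 6633 (-2.01), and Snord3b1-202, a U3 gene with 3 other entries of the same values, differed by -1.93. Both turned to the other direction without a call on the deposited TPM (0.16 and 0.24). Snord118-201, the U8 snoRNA, gave no call (-0.18), was called lower with size factors (-1.14) and turned to 1.98 on the deposited TPM. Scarna8-201, a small Cajal body RNA, was lower (-0.88) and turned to 1.15 on the deposited TPM. Over all tested snoRNAs 71 were higher and 51 lower of 284, beside 65.7% and 4.75% of all transcripts, and their median lay 0.99 to 1.82 below that of all transcripts under the 5 scalings.

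Y and vault RNAs stood at or above the HSPC level on rescaled TPM. Relative to the median log2 fold change of all transcripts, Rny1-201 lay at -1.40, Rny3-201 at -1.03 and Vaultrc5-201 at -0.21. After quantile normalization they lay above that median, at 0.66, 1.11 and 1.74. Rny3-201 stood at 5071, 4488 and 6374 rescaled TPM in monocytes and at 3215, 3758 and 3592 in HSPCs (0.58), turned to -0.54 with a call with size factors and lost its call when Mir6236 and Lars2 were left out before rescaling (0.27), a setting chosen after seeing the data. Rny1-201 gave no call (0.21), turned to -0.75 with size factors and was called higher after quantile normalization (0.67) and, at 0.30, without monocyte replicate 2. Vaultrc5-201, the vault RNA, stood at 5605, 5692 and 6351 against 2726, 1895 and 2169, with no overlap (log2 fold change 1.39, SE 0.162, limma adjusted p = 3.75e-04), and gave no call with size factors (0.43). Of the 9 genes in the list of Y, vault, 7SK, 7SL and ribozyme RNAs 2 were higher and 6 lower on rescaled gene sums, beside 79.6% and 5.21% of all genes on that scale, a median of -1.06 that turned to 1.11 on the deposited TPM. Among mitochondrial tRNAs 11 of 22 were higher and 3 lower, beside 65.7% and 4.75% of all transcripts. The initiator and elongator tRNA for methionine, mt-Tm-201, stood at 28165, 28974 and 30888 against 18601, 17536 and 16748 (0.74), a call lost with a pseudocount of 0.1, without Mir6236 and Lars2 (0.42) and with size factors, where its value turned to -0.22. The serine tRNA mt-Ts2-201 differed by 1.14 and lost its call with size factors (0.18), without Mir6236 and Lars2 (0.83) and without HSPC replicate 2 (1.08). The histidine tRNA mt-Th-201 gave no call (0.30) and was called lower with size factors (-0.66). It was called higher after quantile normalization (0.95), on the deposited TPM (2.46) and with a pseudocount of 10 (0.30). The small ribosomal RNA mt-Rnr1-201 was called at 0.56, turned to -0.40 with size factors and lost its call with a pseudocount of 0.1, with the replicate block, without Mir6236 and Lars2 (0.25) and, at 0.41 to 0.54, without monocyte replicate 1 or 2 or HSPC replicate 1 or 2. The large ribosomal RNA mt-Rnr2-201 gave no call (0.00), and it was called lower with size factors (-0.96) and higher on the deposited TPM (2.16).

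**Figure D4:**
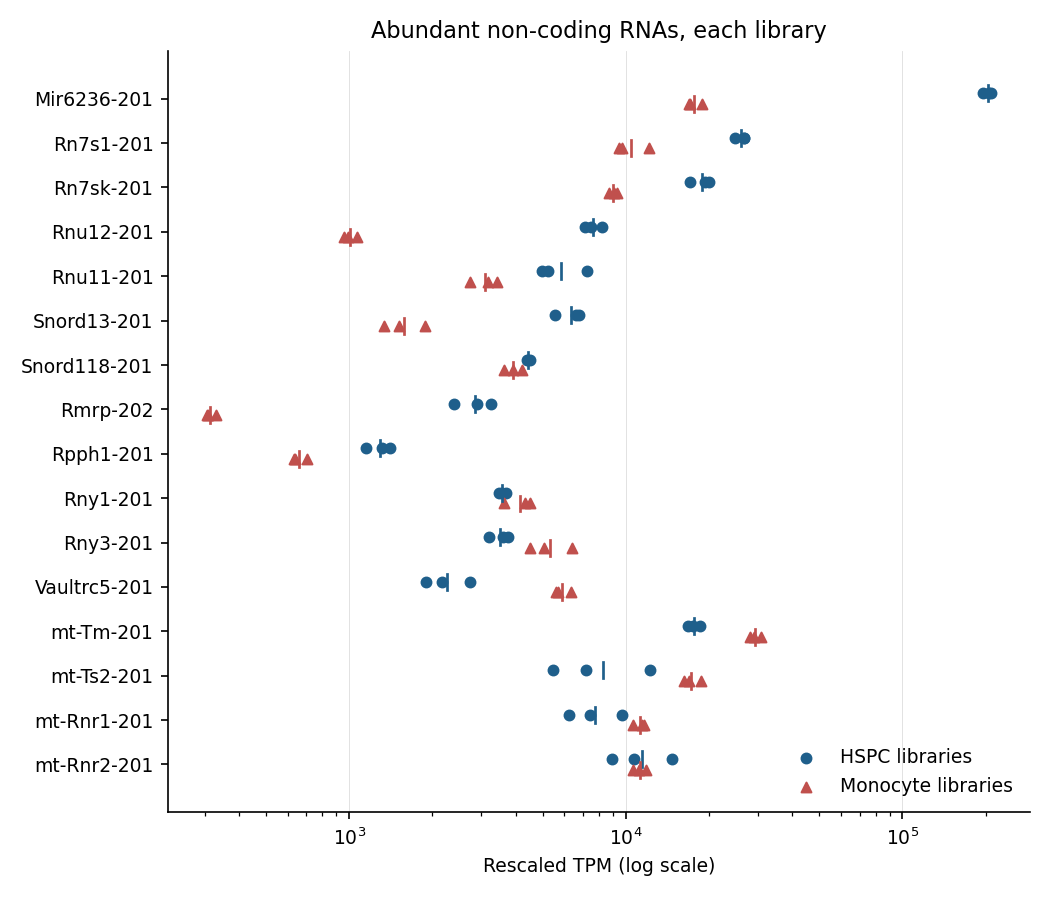
Rescaled TPM (log scale) of abundant non-coding transcripts in each library, with monocytes as triangles, HSPCs as circles and group means as vertical lines. Mir6236, 7SL, 7SK, U12, Snord13 and Rmrp lay lower in the 3 monocyte libraries and Vaultrc5 and mt-Tm higher. On the deposited TPM 7SL, 7SK, U11, Snord13 and Rpph1 turned to the other direction, and with size factors mt-Tm did.

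Some entries were near 0 in 1 group. Of all tested transcripts 65.5% were called higher and 4.7% lower without overlap between the groups, and the 8 widest differences in each direction come from these. Gm12895-201 and Gm12896-201, processed pseudogenes of 226 bases on chromosome 4 with identical values, stood at 9835, 11874 and 8936 rescaled TPM in monocytes and at 0.310, 2.12 and 0.611 in HSPCs, a log2 fold change of 12.40 and the largest of all. They stood no higher than 0.485 in spleen lymphocytes. Gm54588-201, typed miRNA, stood at 22807, 20495 and 31673 against 296, 264 and 0.351, so that 1 HSPC library was far below the others (9.02, SE 2.08, limma adjusted p = 0.00775). AY036118-201, a pseudogene entry that M21 types rRNA, stood at 431, 577 and 910 against at most 0.242. The snRNA entries Gm25245-201 (1016, 986 and 585 against 0, 0 and 10.02) and Gm26204-201 and the miRNA entry Gm55288-201 were also at or near 0 in HSPCs, as were Gm28872-201 and Gm14303-201. On the HSPC side Grip2-204, an isoform of a glutamate receptor interacting protein that is typed as a target of nonsense-mediated decay, stood at 819, 823 and 805 against 1.65, 1.77 and 1.55 (-8.27, SE 0.0909, limma, adjusted p = 9.98e-07), with 119 to 1622 in spleen lymphocytes. Rps14-205 was listed at 0 in monocytes and at 158, 90.8 and 175 in HSPCs, while the gene sum of Rps14 gave no call on rescaled TPM (0.15) and was lower on the coding share (-1.19). Snora16a-202 was near 0 in monocytes and at 378, 418 and 575 in HSPCs, but with the second entry Snora16a-201 added the gene sum was 60.5, 109 and 79.7 against 539, 425 and 577 (-2.64). The antibody segment Igkj2 and the snRNA entry Gm22623 and the miRNA entry Gm56198 were listed at 0 in the 3 monocyte libraries and between 37.4 and 161 in HSPCs. Terc, the telomerase RNA, chosen after its values were seen, was split the same way. Terc-201 stood at 12.2, 22.9 and 3.80 in monocytes and was listed at 0 in HSPCs, and Terc-202 was listed at 0 in monocytes and at 50.2, 36.7 and 44.0 in HSPCs. Lars2-209, an isoform of the mitochondrial leucyl-tRNA synthetase gene, was the largest single kept entry of monocytes. It held 5.29 to 6.07% of the rescaled TPM in monocytes against 4.56 to 5.68% in HSPCs. It gave no call (0.16), turned to -0.80 with size factors and was called higher after quantile normalization (1.47).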

How the data were processed

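Surface RNA was sequenced from 3 monocyte and 3 HSPC libraries. Read trimming by Trimmomatic, removal of duplicate reads with the same barcode and quantification by Kallisto were the authors' steps, and they deposited TPM per transcript, which Kallisto corrects for effective length. The labels name mm10, while the transcript release, the handling of strand and read counts were not given in the sources used here, and the 2 tables list different transcript sets with GENCODE-style names. Transcripts in both tables were kept, rRNA and 3 genes were dropped, and values were rescaled. Differences were tested by limma 3.58.1 (R 4.3.3) with a trend on log2(value + 1), 3 libraries against 3, for transcripts or genes above 10 rescaled TPM in at least 1 library, with Benjamini-Hochberg adjustment over each table and a threshold of 0.05. Fold changes are on that scale and understate changes of low genes. Shares of RNA types were compared by exact permutation.

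The text names the 8 largest called differences in each direction without overlap, for transcripts and for coding shares, up to 3 abundant genes of each non-coding type it describes, and up to 4 of the highest genes of each list. Members and lists were chosen with earlier results of these data known. Names outside the rule are marked where they stand, with some exceptions. Rny1, Vaultrc5, Rnu11, Gm47428, Mir142hg and the parent or partner transcripts of named entries lie outside the rule and carry no mark. Positions and transcript sequences come from GENCODE M21 on GRCm38, found for 12320 of the 12992 tested transcripts, and copies were found with blastn 2.17.0. The fit of transcripts on rescaled TPM was tested on simulated data, and the other fits were not. Platform and annotation differed between the groups. Monocyte-only transcripts, 47487 of 149488 with 0.770 to 0.951% of the TPM, entered no comparison. Scaling, pseudocount, filter, replicate block and leaving out each library were the main alternatives. Some items that the rule names are not reported here.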

Additional observations from a re-analysis of the deposited data

Results flagged for a closer look

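Gm55099-201, typed miRNA, is listed in the monocyte table only and so entered no comparison. It stood at 5215, 5039 and 3468 deposited TPM in the monocyte libraries, a mean of 4574, and its level in HSPCs is unknown. Of the 47487 transcripts listed for monocytes alone 43114 were at 0 in the 3 libraries and 116 exceeded 10 TPM. No other value met a rule for a closer look, and groups of 3 libraries were not examined for single libraries that stand apart.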

How the results depend on the processing

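The count of transcripts depended on the scale and the filter. Transcripts higher in monocytes, 8539 as reported, numbered 5278 on the deposited TPM, 2598 after quantile normalization, 1574 with a filter above 50 TPM, 14953 without a filter and 4655 with a filter on the mean. The 617 lower transcripts became 22, 2243, 247 and 3457 under the first 4 of these, 1237 with size factors, and 930 without Mir6236 and Lars2, a setting chosen after seeing the data. For coding shares, 3605 higher became 1906 after quantile normalization, 808 above 50 TPM and 2268 with a filter on the mean, and 1066 lower became 1774 after quantile normalization, 1724 with size factors, 301 above 50 TPM and 3053 without a filter. Fewer transcripts entered the stricter filters, and the causes of the other shifts were not tested. Leaving out 1 library gave 7994 to 8434 higher and 479 to 666 lower transcripts, and 3129 to 3437 and 843 to 1047 for coding shares. The groups share replicate numbers. Deviations of same-numbered libraries correlated with r of -0.022 to 0.010, and those of different-numbered libraries with r of -0.042 to 0.049. Values this near 0 show no pairing, but they do not settle whether the numbers pair the libraries. With the replicate block 8416 transcripts were higher and 629 lower, and 3233 and 985 for coding shares.

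Log2 ratios of type shares turned to 1.05 for snRNA, 1.36 for misc_RNA, 1.91 for snoRNA and scaRNA and 1.23 for ribozyme on the deposited TPM, and without Mir6236 to 0.92 for miRNA, -0.0488 for Mt_rRNA and -0.0737 for other types. Sign changes of single entries are listed here where the reported fit or the alternative gave a call. Values that changed sign on the deposited TPM were the median of the Y, vault and 7SL list (1.11), Igkc (0.22), Ighm (0.66), mt-Rnr2 (2.16), Rn7s1 and Rn7s2 (0.83), Rn7sk (1.11), Rpph1 (1.19), Scarna8 (1.15), Snord118 (1.98), Snord13 (0.16), Snord3b1 (0.24) and Rnu11 (1.27). With size factors they were mt-Rnr1 (-0.40), mt-Tm (-0.22), mt-Th (-0.66), Lars2-209 (-0.80), Ifitm2 (-0.024), Gapdh (-0.25), Ftl1 (-0.14), mt-Atp8 (-0.28), Rny3 (-0.54), Rny1 (-0.75) and Mir142hg (-0.76). After quantile normalization they were mt-Co1 (0.18), mt-Co3 (0.44), H2bc15 (0.39), H4c6 (0.15), H2ac18 (0.14) and Mir142hg (-1.40), and with copies added, Hmgb2 (0.62) and Tpt1 (0.0044). Snord118 and mt-Rnr2, without a call as reported, also turned positive after quantile normalization. They lay 0.30 and 0.59 above the median of all transcripts there, which was 0.0078. With another pseudocount, the replicate block or 1 library left out, no named value with a call changed direction. The block ended the calls of 5 named values, Ftl1, Gpi1, Hmgb2, Ppbp and mt-Rnr1.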
